A study of Rattus norvegicus with 11 samples.

Results

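Calcium and calmodulin signalling in rat hippocampus was followed through 9 genes, Camk2a, Camk2b, Camk2d, Camk2g, Camk4, Camkk1, Camkk2, Nrgn and Pcp4. Members were the probe sets whose single platform gene symbol was one of these, which gave 16 of the 15923 probe sets on the array, and each gene had at least 1. Of the 16, 15 were bright enough to enter the fit, among 11899 in all. The genes were chosen on the ketogenic against control diet differences of these same arrays, so their own diet differences are a description and carry no test.

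Total RNA of hippocampus was hybridised to 1 array per sample, 5 from rats fed a ketogenic diet and 6 from rats fed a control diet. A ketogenic diet is rich in fat and poor in carbohydrate, and the submitters describe it as preventive of epileptic seizures. Strain, age, sex, diet composition and time on diet were not stated in the labels. Nor do the labels say that each array is a separate animal, so the errors measure the spread between these samples, which may be technical. Of 18 genes listed as markers of hippocampal pyramidal and granule cells, 12 were measured, 1 was too dim and 5 had no probe set with a single symbol.

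Calcium that enters a neuron through glutamate receptors binds calmodulin, and the loaded calmodulin switches on a family of protein kinases. CaM kinase II is a holoenzyme built from alpha, beta, gamma and delta subunits (Camk2a, Camk2b, Camk2g and Camk2d). It phosphorylates itself and so stays active after calcium has fallen, a step that synaptic potentiation in hippocampus depends on. The kinases Camkk1 and Camkk2 act above Camk4, a nuclear kinase that phosphorylates the transcription factor CREB, while the small IQ-motif proteins encoded by Nrgn (neurogranin) and Pcp4 (PEP-19) bind calmodulin and affect how much of it is free.

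The promoters of the 4 genes with a probe set called in the fit over all probe sets are printed here because they are the genes whose values the account turns on. Each runs 5′ to 3′ over 250 bases before and 50 after the annotated start, from RefSeq on the build GRCr8. Capitals mark 4 motifs searched on both strands: TGACG, the core of a CREB site, then CCAAT, then the GC box with the letters GGGCGG, and the TATA box with the letters TATAAA.
Camk2a, chr18:56648930-56649229, plus strand: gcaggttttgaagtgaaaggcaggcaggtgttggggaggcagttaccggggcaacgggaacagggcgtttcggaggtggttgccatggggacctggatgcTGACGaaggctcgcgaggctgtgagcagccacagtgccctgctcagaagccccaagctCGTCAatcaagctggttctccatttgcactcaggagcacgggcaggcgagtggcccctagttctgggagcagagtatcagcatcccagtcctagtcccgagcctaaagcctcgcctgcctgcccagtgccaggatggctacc
Camk2b, chr14:85147895-85148194, minus strand: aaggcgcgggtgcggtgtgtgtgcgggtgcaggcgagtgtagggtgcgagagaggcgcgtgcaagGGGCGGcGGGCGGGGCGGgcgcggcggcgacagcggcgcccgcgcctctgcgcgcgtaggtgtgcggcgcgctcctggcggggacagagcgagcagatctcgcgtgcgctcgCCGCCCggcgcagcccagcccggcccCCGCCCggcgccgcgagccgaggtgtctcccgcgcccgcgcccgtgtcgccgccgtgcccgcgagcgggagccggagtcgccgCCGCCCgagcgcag
Camk2d, chr2:217698301-217698600, plus strand: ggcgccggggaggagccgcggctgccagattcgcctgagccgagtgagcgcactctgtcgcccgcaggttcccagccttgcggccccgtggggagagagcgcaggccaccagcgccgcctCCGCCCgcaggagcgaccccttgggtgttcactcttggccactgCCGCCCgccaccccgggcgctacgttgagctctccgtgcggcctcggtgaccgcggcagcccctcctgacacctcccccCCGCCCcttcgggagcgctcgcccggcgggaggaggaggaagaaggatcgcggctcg
Camkk1, chr10:58135685-58135984, plus strand: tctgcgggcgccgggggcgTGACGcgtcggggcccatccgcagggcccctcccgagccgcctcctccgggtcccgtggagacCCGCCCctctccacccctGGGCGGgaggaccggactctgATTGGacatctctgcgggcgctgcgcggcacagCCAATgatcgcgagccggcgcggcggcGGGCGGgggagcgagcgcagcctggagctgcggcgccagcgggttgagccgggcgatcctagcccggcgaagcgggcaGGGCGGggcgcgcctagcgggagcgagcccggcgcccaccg
Overlapping matches were counted separately, as in the run of GC boxes of Camk2b, and a match is a description of letters and not a site. A promoter was found for 8 of the 9 genes, all but Camkk2. The CREB core was present in 2 of the 8, at -150 and -92 in Camk2a and at -231 in Camkk1, against 21.2% of all 33469 promoters of that length. CCAAT was present in 4 of 8, against 37.5% of all, the GC box in 5 of 8, against 33.1%, and the TATA box in 0 of 8, against 14.2%. The genes with a GC box were Camk2b, Camk2d, Camk2g, Camkk1 and Nrgn.

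The alpha subunit was higher on the ketogenic diet on 1 of its 3 probe sets. Camk2a probe set 1388187_at had normalised signals, in units of array intensity, of 1485, 1584, 1357, 1956 and 1707 on ketogenic arrays 1 to 5, against a lowest, median and highest of 333.7, 681.9 and 1183 on the 6 control arrays. Every ketogenic array lay above every control array. The log2 means were 10.65 ± 0.20 (SD, n = 5) on the ketogenic diet and 9.31 ± 0.62 (SD, n = 6) on the control diet, a log2 difference of 1.34 (SE 0.23), or 2.52-fold. The control arrays were the more scattered, with control replicate 1 lowest and control replicate 6 highest, and the difference was 1.15 and 1.51 without each of them in turn.

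The other probe sets of Camk2a did not differ by that much. Probe set 1389824_at had signals of 417.4, 303.2, 374.1, 364.5 and 365.8 on ketogenic arrays, against a lowest, median and highest of 255.1, 331.2 and 380.3 on control arrays. The diets overlapped, with 1 ketogenic array above all controls, and the log2 difference was 0.16 (SE 0.11). The dimmer 1368935_at of Camk2a had 74.8, 58.3, 51.4, 51.8 and 53.2 on ketogenic arrays, against 37.2, 52.1 and 55.0 on control arrays, a log2 difference of 0.23 (SE 0.15). Within an array, the log2 gap between 1388187_at and 1389824_at was 1.83 to 2.42 on ketogenic and 0.39 to 1.73 on control arrays, without overlap. The gap between 1388187_at and 1368935_at was 4.31 to 5.24 on ketogenic and 3.16 to 4.43 on control arrays, ranges that overlap. Both gaps hold the diet differences on which the gene was chosen, so they are a description. After each diet's mean was taken away, the Pearson correlation with 1388187_at over the 11 arrays was 0.60 for 1389824_at and 0.44 for 1368935_at, a description only, since all share arrays and scaling. The exons that each probe set reads are not analysed here.

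**Figure D1:**
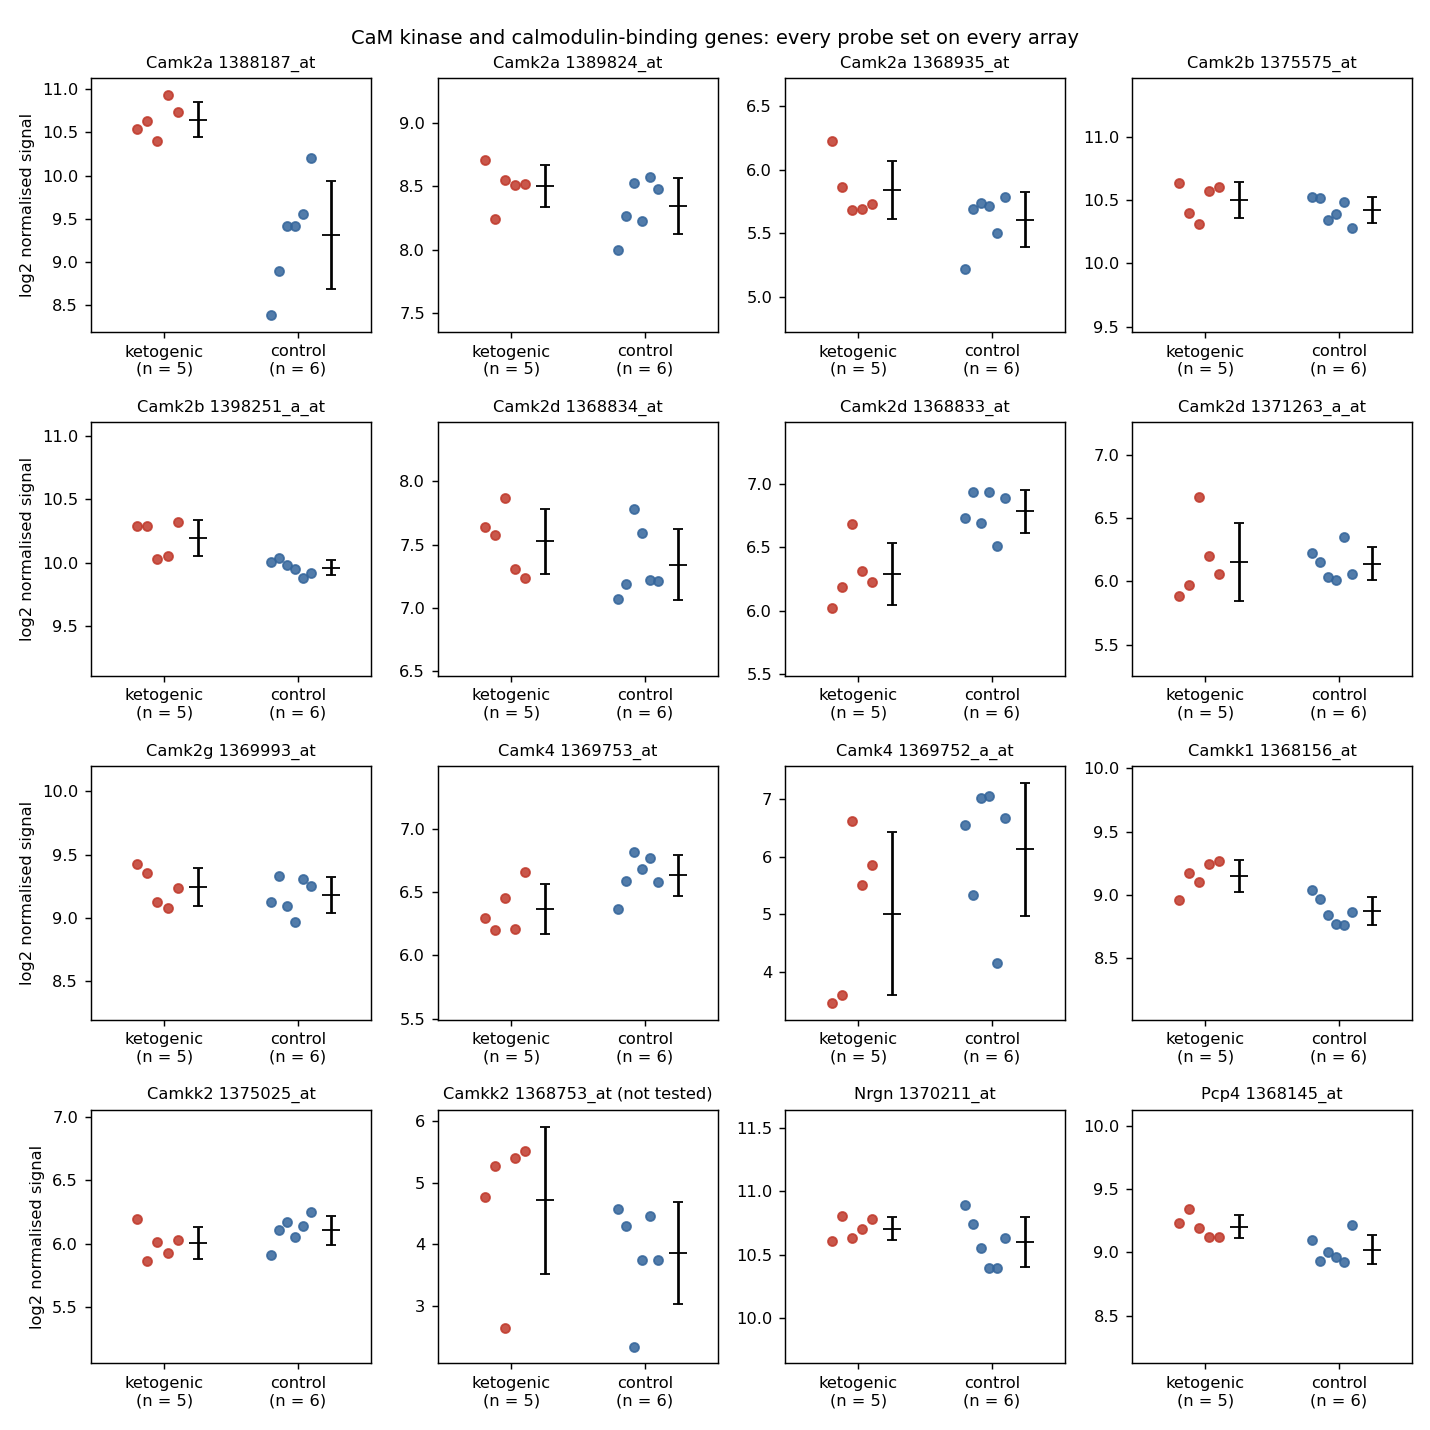
Log2 normalised signal of all 16 probe sets on each array (points), with the mean and SD of each diet (bar), ketogenic diet left and control diet right. Camk2a 1388187_at is the only panel in which the diets do not overlap.

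The beta subunit, which ties the holoenzyme to actin, had 2 probe sets. Camk2b probe set 1398251_a_at had signals of 1249, 1253, 1044, 1059.9 and 1279 on ketogenic arrays, against a lowest, median and highest of 939.0, 999.0 and 1052 on control arrays. Ketogenic replicate 3 lay below the highest control and the other 4 ketogenic arrays above all controls. The log2 difference was 0.23 (SE 0.06). Camk2b probe set 1375575_at had 1587, 1346, 1268, 1519 and 1550.5 on ketogenic arrays, against 1240.0, 1389 and 1471 on control arrays, and a log2 difference of 0.08 (SE 0.07).

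The probe sets of the delta subunit pointed in different ways. Camk2d probe set 1368833_at had signals of 65.0, 73.0, 102.9, 79.5 and 75.05 on ketogenic arrays, against a lowest, median and highest of 91.2, 112.0 and 122.7 on control arrays. Ketogenic replicate 3 lay among the controls and the other 4 ketogenic arrays lay below all of them. The log2 difference was -0.49 (SE 0.12), 1.41-fold lower on the ketogenic diet. Camk2d probe set 1368834_at had 199.8, 191.2, 233.4, 158.1 and 151.0 on ketogenic arrays, against 134.5, 148.4 and 220.2 on control arrays, a log2 difference of 0.18 (SE 0.14). Camk2d probe set 1371263_a_at had 58.9, 62.8, 101.3, 73.3 and 66.6 on ketogenic arrays, against 64.6, 68.8 and 81.3 on control arrays, a log2 difference of 0.02 (SE 0.14). On both the diets overlapped. The log2 gap between 1368834_at and 1368833_at was 0.99 to 1.62 on ketogenic arrays and 0.25 to 1.09 on control arrays, ranges that overlap.

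For the gamma subunit, Camk2g probe set 1369993_at had signals of 688.8, 655.2, 558.8, 540.5 and 602.7 on ketogenic arrays, against a lowest, median and highest of 501.1, 584.5 and 643.2 on control arrays. The diets overlapped, and the log2 difference of 0.06 (SE 0.08) was smaller than the SD within either diet.

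**Figure D2:**
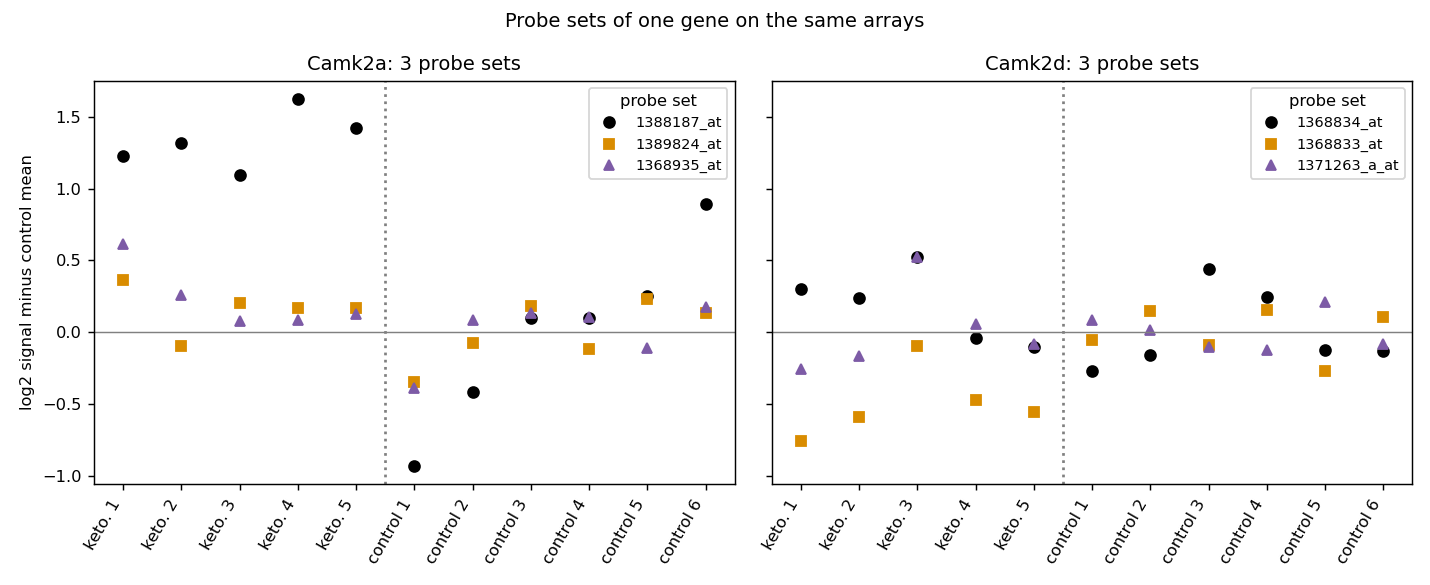
Log2 signal of the 3 probe sets of Camk2a (left) and of Camk2d (right) on each array, relative to that probe set's control mean, with ketogenic arrays left of the dotted line. Only 1388187_at of Camk2a lies above all control arrays on every ketogenic array, while 1368833_at of Camk2d lies below 0 on all 5.

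Of the upstream kinases, Camkk1 was higher on the ketogenic diet. Its probe set 1368156_at had signals of 497.5, 577.7, 549.3, 606.6 and 617.1 on ketogenic arrays, against a lowest, median and highest of 433.5, 463.1 and 526.5 on control arrays. Ketogenic replicate 1 overlapped the controls and the other 4 ketogenic arrays lay above them. The log2 difference of Camkk1 was 0.27 (SE 0.07), 1.21-fold. Camkk2 probe set 1375025_at had 73.1, 58.1, 64.7, 60.8 and 65.4 on ketogenic arrays, against 60.1, 69.7 and 76.1 on control arrays, a log2 difference of -0.10 (SE 0.11). The dim Camkk2 probe set 1368753_at was not tested. It had 27.1, 38.8, 6.22, 42.2 and 45.7 on ketogenic arrays, against 5.02, 16.26 and 23.9 on control arrays, so that 4 ketogenic arrays lay above all controls and ketogenic replicate 3 below all but 1 of them.

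Camk4 had log2 differences below 0 on both probe sets. Camk4 probe set 1369753_at had signals of 78.6, 73.7, 87.7, 74.1 and 101.3 on ketogenic arrays, against a lowest, median and highest of 82.5, 99.4 and 112.7 on control arrays, a log2 difference of -0.27 (SE 0.11). Probe set 1369752_a_at had 10.98, 12.16, 98.3, 45.7 and 58.0 on ketogenic arrays, against 17.78, 97.3 and 133.1 on control arrays, a log2 difference of -1.12 (SE 0.61). Both diets were widely scattered on it. Its ketogenic log2 mean of 5.01 lay under the level of 5.17 needed for testing, so that it was tested only through its control values.

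The calmodulin-binding proteins differed little. Nrgn probe set 1370211_at had signals of 1559, 1790.3, 1587, 1664 and 1761 on ketogenic arrays, all within the control range, with 1342, 1541 and 1899.6 as lowest, median and highest on control arrays. Its log2 difference was 0.11 (SE 0.08). Pcp4 probe set 1368145_at had 600.3, 647.8, 585.0, 558.2 and 557.4 on ketogenic arrays, against 486.0, 505.9 and 593.3 on control arrays, with 2 ketogenic arrays above all controls. The log2 difference of Pcp4 was 0.18 (SE 0.07), and 0.22 without control replicate 6, the highest control.

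Counted together, 3 of the 15 tested probe sets were called higher on the ketogenic diet (Camk2a 1388187_at, Camk2b 1398251_a_at and Camkk1 1368156_at) and 1 lower (Camk2d 1368833_at), where called means a limma adjusted p under 0.05. Over the whole array that share was 16.5%, made up of 8.62% higher and 7.87% lower. The diets did not overlap on 1 of the 15, with the ketogenic arrays above. Of all tested probe sets 6.99% had no overlap, 3.91% with the ketogenic arrays above and 3.08% with them below. With 1 array left out, Camk2b 1398251_a_at was not called without control replicate 5 (0.22) or ketogenic replicates 1, 2 or 5 (0.21, 0.21 and 0.20), nor Camkk1 without ketogenic replicates 2, 4 or 5 (0.27, 0.25 and 0.24), while Pcp4 was called without control replicate 6. Because the diet comparison guided the choice of genes, these calls are no test of the members and nothing is read from them. With the tested probe sets of each gene averaged, the log2 difference was 0.58 for Camk2a and 0.27 for Camkk1, both called, and 0.16 for Camk2b and -0.10 for Camk2d, neither called.

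The arrays also differed between diets as wholes. The log2 ratio of 3 prime to 5 prime control probe sets, which rises with RNA breakdown, was 0.25 ± 0.08 (SD, n = 5) on ketogenic arrays and 0.04 ± 0.07 (SD, n = 6) on control arrays for Gapdh (two-sided exact permutation test, p = 0.00649, adjusted over 4 measures 0.00866). For actin it was 0.86 ± 0.10 on ketogenic and 0.67 ± 0.10 on control arrays (exact p = 0.00216, the lowest these groups allow, adjusted 0.00433). Deposited log2 medians averaged 6.39 on ketogenic and 6.53 on control arrays, with the same exact p and adjusted value as actin. Spiked-in bacterial and phage RNA averaged 5.15 on ketogenic and 5.20 on control arrays (exact p = 0.31). On the first principal component ketogenic replicate 3 scored -2.82, the remaining ketogenic arrays 18.6 to 25.7 and the control arrays -17.3 to -10.6. No label names a batch, but the title of ketogenic replicate 3 ends in another suffix than those of the other 10 arrays, which the labels do not explain.

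With both ratios as covariates, the log2 difference was 1.05 (SE 0.44) for Camk2a 1388187_at, 0.05 (SE 0.11) for Camk2b 1398251_a_at, 0.27 (SE 0.14) for Camkk1 and -0.25 (SE 0.22) for Camk2d 1368833_at. In that limma fit 0 of the 15 were called, while 6 of all 11899 probe sets were. An unadjusted p under 0.05 was found for 2 of the 15, Camk2a 1388187_at and Camk2d 1371263_a_at. The latter was at 0.52 (SE 0.21) in that fit, opposite in sign to Camk2d 1368833_at. With the spiked-in level as a covariate, Camk2a 1388187_at, Camk2b 1398251_a_at, Camkk1 and Camk2d 1368833_at were at 1.29, 0.23, 0.23 and -0.48. Of these, Camk2a 1388187_at and Camk2d 1368833_at were called. Within the 6 control arrays, Camk2a 1388187_at had Pearson correlations of 0.25, 0.24, -0.45 and 0.00 with the Gapdh ratio, the actin ratio, the array median and the spiked-in level (exact permutation p of 0.369 to 1, adjusted over 4 measures 0.904 to 1). Spearman correlations were 0.06, 0.12, -0.06 and 0.03 in that order (exact permutation p of 0.839 to 0.994, adjusted 0.994 for each). Without the 2 arrays farthest from the median of each measure, Pearson's r over the remaining 4 was -0.43, 0.84, 0.34 and -0.45, and no relation passed the threshold over the 6. Gapdh ratios ran from -0.07 to 0.15 on control and 0.13 to 0.34 on ketogenic arrays, so control arrays cover little of the ketogenic range. Actin ratios ran from 0.487 to 0.750 on control and 0.755 to 0.985 on ketogenic arrays, without overlap. The fit with both ratios therefore separates diet from the ratios poorly. Over all 11 arrays, with diet means taken away, r with the Gapdh ratio was 0.19 for Camk2a 1388187_at and -0.01 for Camkk1. It was 0.61 for Camk2b 1398251_a_at, 0.69 for Pcp4, -0.30 for Camk2d 1368833_at and -0.83 for Camk2d 1371263_a_at, a description only.

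**Figure D3:**
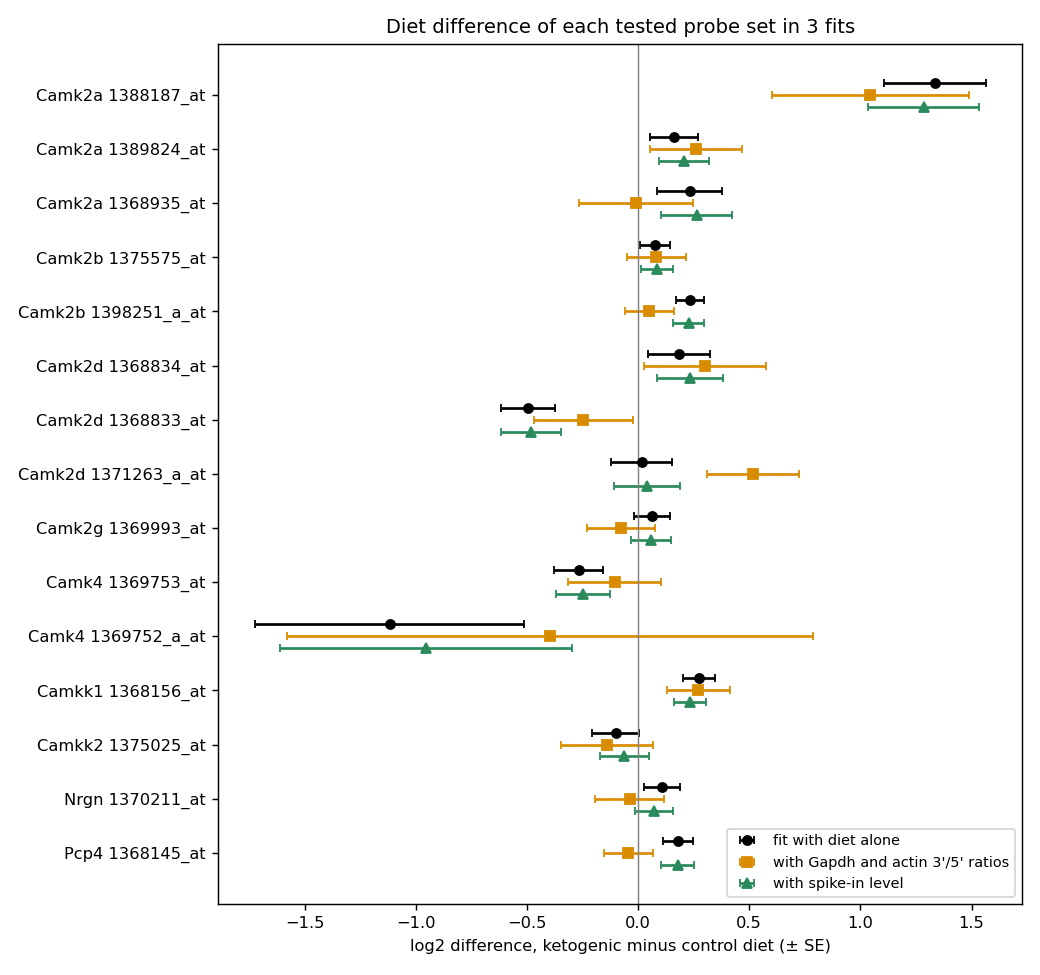
Log2 difference, ketogenic minus control diet, with its SE for the 15 tested probe sets, in the fit with diet alone, with the 3 prime to 5 prime ratios of Gapdh and actin, and with the spiked-in level as covariates. Camk2a 1388187_at lies at 1.34, 1.05 and 1.29 in these fits. With the ratios its SE is 0.44 and it is not called. Camk2b 1398251_a_at lies at 0.05 with the ratios.

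Calmodulin itself and a list of other calmodulin-dependent kinases, kinase subunits and related genes gave no calls. Calm2, which encodes calmodulin, had signals of 3546, 3230.2, 3195, 3230.2 and 3275 on ketogenic arrays, against 3393 to 3592 on control arrays. Ketogenic replicate 1 lay within the control range and the other 4 below it, and the log2 difference was -0.07 (SE 0.04, limma adjusted p = 0.18). The calmodulin-like gene Calml4 had one of 0.23 (SE 0.14, limma adjusted p = 0.273), and the other 3 genes of that list had no probe set with a single symbol. Of 15 measured genes of that kinase list, not all of which encode a kinase that calmodulin drives, 0 were called by limma. Of the 15, 4 had an unadjusted p under 0.05, and the median log2 difference was -0.11. Of 8 genes of calcineurin, the phosphatase that calmodulin activates, and its regulators, 0 were called and 1 had an unadjusted p under 0.05. The same counts, 0 and 1, held for 3 calmodulin-dependent cyclases and phosphodiesterases.

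Over 9 lists of pathway genes, 99 genes were measured, of which 6 rose and 5 fell, together 11.1%, against 16.9% of all 8397 genes (8.85% higher and 8.04% lower). The median log2 difference was -0.02 over the 99 and -0.00318 over all genes. The lists were chosen with earlier results of these data known, so these counts are a description. Among 14 CaM kinase II substrates 7 had an unadjusted limma p under 0.05, against 2845 of all 8397 genes. Of the 14, 1 was called as risen and 0 as fallen. The risen gene was Hdac4, a histone deacetylase that shuttles between cytoplasm and nucleus. Hdac4 had signals of 99.2, 107.3, 101.7, 96.7 and 113.1 on ketogenic arrays, against 57.2 to 84.6 on control arrays. The diets did not overlap, and the log2 difference was 0.54 (SE 0.11, limma adjusted p = 0.00677). Among 13 inhibitors and partners of CaM kinase II 1 rose and 0 fell, the actin cross-linker Actn2. Actn2 had signals of 40.9 to 71.6 on ketogenic and 15.22 to 48.4 on control arrays, and a log2 difference of 0.96 (SE 0.29). Its control mean lay under the testing level, so that it was tested only through its ketogenic values. It is counted among the 6, but its call is no test, and without a filter it was not called. On the values as deposited the difference was 0.78, and centred on the 75th percentile 0.81, not called in either.

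Genes around Camk4 and CREB had the highest share of calls among the 9 lists, 4 higher and 1 lower of 12 measured, or 41.7%, with a median log2 difference of 0.20. This list also holds the kinase gene Akt1 and subunit genes of AMPK, an energy sensor. As it was chosen with earlier results of these data known, its share and the calls in it are no test. Crebbp, a coactivator that binds phosphorylated CREB, had signals of 159.3, 183.6, 125.9, 167.7 and 122.4 on ketogenic arrays, against 60.9 to 104.6 on control arrays. The diets did not overlap, and the log2 difference was 0.88 (SE 0.14, limma adjusted p = 0.00282). Atf2, a relative of CREB, had one of 0.72 (SE 0.16, limma adjusted p = 0.0102), and Prkab1, a subunit of the energy sensor AMPK, one of -0.58 (SE 0.19, limma adjusted p = 0.0488). The remaining 2 called genes are named after their values were seen. Creb1, which encodes CREB, had a log2 difference of 0.53 (SE 0.16, limma adjusted p = 0.0376), but 0.37 on the values as deposited and 0.40 with each array centred on its 75th percentile, not called in either. The kinase gene Akt1 had one of 0.30 (SE 0.06, limma adjusted p = 0.00732). Another probe set of Akt1, 1375178_at, was called in the opposite direction at -0.47 (SE 0.13). The mean level of the 12 genes relative to the control mean was 0.08 to 0.22 on ketogenic and -0.13 to 0.11 on control arrays. The count of 5 called was 9 without ketogenic replicate 3, and 3 without control replicates 1, 4 or 5 or ketogenic replicates 1, 4 or 5.

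Calmodulin-binding proteins of membrane and cytoskeleton had 0 higher and 3 lower of 15, a share of 20%. Of all genes 16.9% were called in either direction and 8.04% lower. Marcks, which calmodulin and protein kinase C release from the membrane, had a log2 difference of -0.33 (SE 0.09, limma adjusted p = 0.0219), and its 5 tested probe sets were all below 0, with 2 called. Its relative Marcksl1 had one of -0.29 (SE 0.09, limma adjusted p = 0.047), but with the authors' deposited scaling it was at -0.15, and with 75th percentile centring at -0.12, not called in either. Strn, the scaffold striatin, had one of -0.52 (SE 0.17, limma adjusted p = 0.0497), while its other probe set was at 0.08 (SE 0.16). The list median was -0.12, but -0.01 on the values as deposited and 0.02 with each array centred on its 75th percentile, so its direction depends on the scaling. Of 17 calcium buffers and sensors with EF hands 1 fell and 0 rose, the potassium channel partner Kcnip4 at -0.39 (SE 0.12, limma adjusted p = 0.0362).

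**Figure D4:**
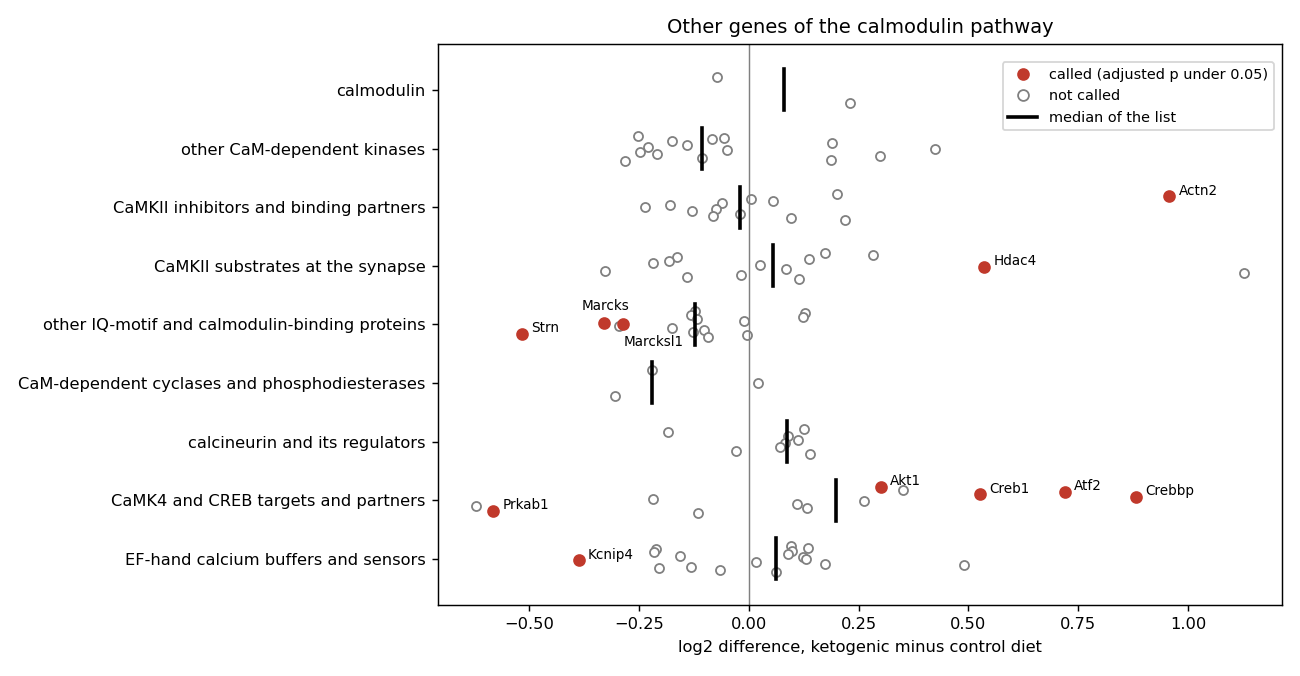
Log2 difference, ketogenic minus control diet, of each measured gene in 9 pathway lists, with called genes filled and named and the median of each list as a bar. Of the 6 calls above 0, 4 lie in the list of Camk4 and CREB genes, which also holds Akt1 and AMPK subunits. Of the 5 below 0, 3 lie among the IQ-motif and calmodulin-binding proteins.

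With 1 array left out at a time, the calls of Hdac4, Crebbp, Atf2 and Akt1 held in all 11 fits, and that of Marcks in 9, not without ketogenic replicates 2 or 4 (-0.29 and -0.30). Actn2 was called in 5, those without control replicates 1, 2 or 3 (1.02, 1.09 and 1.10) or ketogenic replicates 1 or 3 (1.08 and 0.90). The others were called in 3 each. Creb1 was called without control replicates 2 or 3 or ketogenic replicate 3 (0.59, 0.60 and 0.54), and Prkab1 without control replicate 6 or ketogenic replicates 2 or 3 (-0.65, -0.70 and -0.68). Marcksl1 (-0.32, -0.31 and -0.33) and Kcnip4 (-0.44, -0.41 and -0.49) were called without control replicates 1 or 6 or ketogenic replicate 3, and Strn without control replicate 6 or ketogenic replicates 3 or 5 (-0.59, -0.59 and -0.62). Over all alternatives, those with an array left out included, Creb1 was called in 8 of 23, Actn2 in 10 of 23, Marcksl1 in 10 of 24, Prkab1 in 11 of 23, Strn in 11 of 24, Kcnip4 in 12 of 24 and Marcks in 20 of 24. Hdac4 was called in 22 of 23, and Crebbp, Atf2 and Akt1 in 23 of 24 each.

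Markers of other cells and regions are given beside the 16.9% of all genes called, 8.04% lower. Their lists too were chosen with earlier results of these data known. Choroid plexus markers had 3 lower and 0 higher of 7, or 42.9%, with Aqp1 at -0.73 (SE 0.08, limma adjusted p = 0.00022), and a mean level relative to the control mean of -0.74 to -0.16 on ketogenic and -0.22 to 0.34 on control arrays. Markers of meninges and fibroblasts had 2 lower and 0 higher of 9, or 22.2%, and a mean level of -0.83 to -0.01 on ketogenic and -0.37 to 0.58 on control arrays. Among them Igfbp2 was at -1.21 (SE 0.35, limma adjusted p = 0.0337), and was called in 4 of 11 fits with 1 array left out, those without control replicates 2 or 6 or ketogenic replicates 1 or 3 (-1.35, -1.35, -1.38 and -1.37). Astrocyte markers had 2 lower of 9, or 22.2%, with Gfap at -0.39 (SE 0.09, limma adjusted p = 0.011), not called when centred on the 75th percentile (-0.24). Oligodendrocyte markers had 1 lower of 8, or 12.5%, Mag at -0.52 (SE 0.13, limma adjusted p = 0.018), which was not called without ketogenic replicates 2 or 4 (-0.48 and -0.47). Microglial markers had 2 lower of 6, or 33.3%, with Aif1 at -0.57 (SE 0.14, limma adjusted p = 0.0188), not called without ketogenic replicate 4 (-0.45), while its other probe set was at 0.01 (SE 0.17, limma adjusted p = 0.966). Vascular markers had 1 lower of 6, or 16.7%, Slco1a4 at -0.47 (SE 0.11, limma adjusted p = 0.0136), with its other probe set at -0.14 (SE 0.11, limma adjusted p = 0.41). Those of thalamus, striatum and cerebellum had 2 lower of 8, or 25%, with Gabra6 at -0.65 (SE 0.14, limma adjusted p = 0.0106). None of these lists had a call above 0. The shares of vascular and oligodendrocyte markers were no higher than the 16.9% of all genes called in either direction, but above the 8.04% called lower.

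Markers of pyramidal and granule cells had 2 higher and 0 lower of 12, or 16.7%. Among all genes 16.9% were called in either direction and 8.85% higher. Their median log2 difference was -0.01, and their mean level was -0.01 to 0.22 on ketogenic and -0.24 to 0.08 on control arrays. Grik4, a kainate receptor subunit gene, was at 1.04 (SE 0.27, limma adjusted p = 0.0209), not called without ketogenic replicates 2 or 4 (0.93 and 0.99). Of 9 general neuronal and 9 interneuron markers 0 were called by limma, and 1 in each list had an unadjusted p under 0.05. In the same fit 2845 of all 8397 genes were under that level. In whole tissue, fewer cells of a type and less RNA per cell cannot be told apart, and the part of these markers in the kinase differences was not tested.

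The genes whose pattern over the 11 arrays was most like that of Camk2a 1388187_at, after each diet's mean was taken away, were Sec63, Tjp1, Ptprj, Nudt19 and Slc17a5, with Pearson correlations of 0.90, 0.90, 0.89, 0.87 and 0.86. The 99th percentile over 8396 genes was 0.73, and all points share arrays and scaling. The log2 diet difference, which this measure did not use, was 1.68 (SE 0.37, limma adjusted p = 0.0112) for the phosphatase gene Ptprj and 0.74 (SE 0.14, limma adjusted p = 0.00516) for the lysosomal sialic acid exporter gene Slc17a5. It was 0.24 (SE 0.10, limma adjusted p = 0.0946) for Sec63, which was called without control replicate 6 (0.29), 0.07 (SE 0.07, limma adjusted p = 0.521) for Tjp1 and -0.04 (SE 0.19, limma adjusted p = 0.909) for Nudt19. Among the members themselves such correlations ran up to 0.88, between Camk2a 1389824_at and Camkk2 1375025_at. They ran down to -0.85, between Camk2d 1368834_at and the dim Camkk2 1368753_at. In between were 0.85 for Camkk1 and Nrgn and -0.82 for Camk2g and Camk4 1369752_a_at. These are extremes picked from all pairs and a description only.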

How the data were processed

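Per the file headers, the deposited table has 1 column of linear intensity per array for 15923 probe sets; the route from scanner image to these values is unstated in the sources used here. Trimmed of 2% at each end, every array had a mean of 150.0. Here the intensities were quantile normalised, values under 5.02 (the 5th percentile) were set to it, and log2 was taken. After 57 control probe sets and the dimmest 25% were left out, 11899 were fitted in limma 3.58.1 (R 4.3.3; eBayes with variance trend; ketogenic minus control), with Benjamini-Hochberg adjustment over all and a two-sided threshold of 0.05. The number of arrays limits the precision.

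Platform symbols were updated through the RefSeq gene table of GRCr8. Of 13101 annotated probe sets 12789 had 1 symbol (12754 matched in that table) and 312 several; 2771 were unnamed here. In lists the brightest tested probe set stood for a gene. Members and lists were chosen with earlier results of these data known. The text names all members, up to 3 called genes per pathway list by size, measured calmodulin genes, the called marker of largest difference per cell type and the 5 genes most like Camk2a; Akt1 and Creb1 fall outside this rule. Alternatives covered scaling, filter, floor, variance model, array weights, covariates, a replicate block, gene means and each array left out. In simulated data for this comparison (11899 probe sets) 57 of 100 log2 changes of 0.5 and 91 of 100 of 1 were called, with 9 unchanged ones.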

Additional observations from a re-analysis of the deposited data

Results flagged for a closer look

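Among 82 sets of values of 1 diet, 4 had 1 array far from the rest, where chance gives about 1 in 20, and in 2 of them it was ketogenic replicate 3. The dim Camkk2 probe set 1368753_at was at 2.637 (log2) on ketogenic replicate 3, against 4.761 to 5.514 on the other ketogenic arrays. Atf2 was at 6.755 on ketogenic replicate 3, against 7.286 to 7.497 on the others. Calm2 was at 11.792 on ketogenic replicate 1, against 11.642 to 11.677 on the other ketogenic arrays. Grik4 was at 4.476 on control replicate 6, against 5.779 to 6.316 on the other control arrays.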

How the results depend on the processing

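Camk2a 1388187_at kept its direction in all 24 alternatives (1.05 to 1.52) and its call in 23, losing it with the 3 prime to 5 prime ratios, and Camk2d 1368833_at did the same (-0.81 to -0.25). The counts called among all probe sets, members and pathway genes, 1962, 4 and 11 as reported, were 6, 0 and 0 with those ratios (10 pathway genes at an unadjusted p under 0.05), where Kcnip4 was reversed at 0.14. They were 907, 2 and 4 with the spiked-in level and 1360, 5 and 13 with its hybridisation controls alone, chosen after seeing the data. As deposited they were 2812, 7 and 24, with 1076 probe sets higher and 1736 lower, against 1026 and 936, and centred on the 75th percentile 2726, 8 and 23, with Pcp4, Nrgn, Camk2b 1375575_at and Camk4 1369753_at then called at 0.32, 0.26, 0.23 and -0.38. Array weights gave 3136, 5 and 26, and pathway genes called were 6 without a filter and 7 without a variance trend. Leaving out 1 array gave 797 to 3163 probe sets (lowest without ketogenic replicate 4, highest without ketogenic replicate 3), 2 to 5 members and 4 to 26 pathway genes. Deviations of same-numbered arrays correlated at 0.00895 to 0.0771, and 2 of 5 numbers correlated best with their own, so the numbers are not known to pair samples. With the replicate block the counts were 1816, 4 and 13, Camk2a 1388187_at was at 1.52, Camkk1 was not called (0.27) and Pcp4 was (0.22). The cause of these shifts was not tested.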
